A study of Mus musculus with 10 samples.

Results

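Activity-regulated genes are transcribed within minutes to hours of neuronal firing. The 42 genes described here are 21 early transcription factors and co-regulators and 21 effectors. They were chosen by symbol from a list written with earlier results of these data known. The only measured value in the rule is a minimum on the total count. All 42 symbols matched an identifier in the cortex count data and had a total count over 10 across the libraries, among 53700 gene identifiers in all, of which 19268 passed the same count minimum and were tested.

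The libraries came from the cortex of female 5XFAD mice, which carry human transgenes with familial Alzheimer's disease mutations driven by the neuronal Thy1 promoter. The cross combined 5XFAD, a floxed allele of Idol (gene symbol Mylip, an E3 ubiquitin ligase that promotes degradation of lipoprotein receptors) and Camk2a-Cre, which recombines in forebrain excitatory neurons, so glia, vessels and most inhibitory neurons keep the gene. 5 libraries carry the genotype label with cKO (5XFAD;Neu cKO below) and 5 that with WT (5XFAD below), all from mice aged 4 months. The WT label does not say whether those littermates carried Cre or the floxed allele. Every mouse in both groups has the 5XFAD transgenes, so the comparison is of Idol deletion on an amyloid background, with no transgene-free group used here. No behavioural or sensory stimulus is described, and brains were taken after Avertin anesthesia and perfusion with saline, so the levels are those at the end of that procedure. The labels number the replicates without tying them to animals, and p-values measure the spread between these libraries.

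In excitatory neurons, calcium entry through glutamate receptors and voltage-gated channels activates CREB, SRF and MEF2 at promoters that are already poised. Among the first genes to respond are those for transcription factors of the AP-1, EGR and NR4A families and Npas4. These proteins then act with the first factors on further genes, some of them effectors. The split into early factors and effectors used here is by gene product and not by a measured time of response. The effectors scale synapses, release trophic peptides, or switch the kinase pathways off again. Fos, Egr1 and Arc RNA are short-lived, and their levels are widely used as a record of recent activity in cortex.

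The motif through which SRF binds DNA is the CArG box, and CREB binds the cAMP response element (CRE), TGACGTCA. In the 500 bases before the start of the canonical GENCODE transcript (GRCm39, both strands searched), 8 of the 42 genes held a CRE, against 2.31% of the 14654 protein-coding genes tested. A CArG box stood in that window of 7 of the 42, against 2.62% of the protein-coding genes. A motif match describes the letters in the window and not binding. 5 windows of 60 bases are given because they hold these elements in genes whose values follow. The capitals mark the CArG box in the first 2 and the CRE in the last 3, and each is written 5′ to 3′ on the strand of its gene.
Fos, chr12:85520330-85520389, plus strand: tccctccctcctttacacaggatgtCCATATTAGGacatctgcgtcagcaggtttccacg
Rheb, chr5:25047936-25047995, minus strand: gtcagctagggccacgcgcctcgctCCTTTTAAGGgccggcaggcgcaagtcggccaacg
Vgf, chr5:137059033-137059092, plus strand: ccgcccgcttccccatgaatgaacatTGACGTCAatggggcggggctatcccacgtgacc
Dusp1, chr17:26727556-26727615, minus strand: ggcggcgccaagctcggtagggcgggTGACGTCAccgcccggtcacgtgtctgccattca
Btg2, chr1:134007026-134007085, minus strand: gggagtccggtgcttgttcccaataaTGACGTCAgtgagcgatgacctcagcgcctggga
The element begins 303 bases before the start of Fos, 348 before Rheb, 71 before Vgf, 96 before Dusp1 and 201 before Btg2. The other genes with a CArG box were Dusp5 and Egr2, each with 2, and Egr3, Fosb and Gadd45g, and the other genes with a CRE were Ier2, Jund, Maff, Sik1 and Trib1. The AP-1 site TGANTCA, which FOS and JUN dimers bind, was in 4 of the 42 windows (9.52%, against 10% of the protein-coding genes): those of Fos, Homer1, Plk2 and Inhba. The NR4A site AAAGGTCA was in 0 of the 42, against 2.15%.

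Library totals ranged from 4320504 to 7466192 counts in 5XFAD and from 5148499 to 7246659 in 5XFAD;Neu cKO. Values are CPM, counts scaled to a common library total with TMM factors. Mylip, the targeted gene, did not read lower where the label is 5XFAD;Neu cKO: it stood at 14.8 ± 4.90 CPM there and at 11.2 ± 2.27 CPM for 5XFAD (SD, n = 5 each), with an edgeR adjusted p of 0.777. A 3′ tag outside the deleted exons would not show the deletion, and their position is not given in the sources used here, so Mylip could not check the labels. Groups are called by their labels, and every direction below is that of the libraries so labelled. The summed level of 8 excitatory neuron markers was 3985 to 4530 CPM in 5XFAD;Neu cKO and 4109 to 5024 CPM in 5XFAD. Of the 8, 4 were higher, 4 lower and none past the threshold. These values do not tell cortex from other brain regions and are no check of the cortical label.

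None of the 42 genes passed in edgeR's quasi-likelihood test at a Benjamini-Hochberg adjusted p under 0.05, and the smallest adjusted p among them was 0.209 (Plk2). Over all genes tested that threshold was passed by 0.218% (0.0571% higher and 0.161% lower in 5XFAD;Neu cKO). DESeq2 called 0 of the 42 and 0.379% of all genes tested. It gave no adjusted p for 19 of the 42, among them Fos, Klf4, Ccn1 and Ptgs2, or for 13448 of all 19268 genes. Genes without an adjusted p could not be called by it. At an unadjusted p under 0.05 edgeR gave 9 of the 42, against 7.95% of all genes, and DESeq2 gave 7 of the 42, against 7.07%. Of the 9, 8 were higher in 5XFAD;Neu cKO (Fos, Egr1, Nr4a1, Nr4a2, Plk2, Rheb, Ccn1 and Ptgs2, background 3.94%) and 1 was lower (Klf4, background 4.01%). These are counts of genes that share libraries and cells, and no test of the list was made.

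The signs of the differences leaned one way without single genes passing. The log2 fold change of 5XFAD;Neu cKO against 5XFAD was positive for 30 of the 42 and negative for 12, with a median of 0.15, while 49.9% of all genes tested were positive and their median was -0.00056. Early factors and co-regulators had 16 positive and 5 negative values with a median of 0.18, and effectors 14 and 7 with a median of 0.11. The lean moved with single libraries. When 1 was left out at a time, the median ran from 0.14 to 0.25 for early factors. For effectors it ran from 0.0059 to 0.23. Without 5XFAD replicate 2 the positive values numbered 26 of 42, the median was 0.15 for early factors (15 of 21 positive) and 0.0059 for effectors (11 of 21 positive), and 7 of the 42 had an unadjusted p under 0.05, against 6.62% of all genes.

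**Figure D1:**
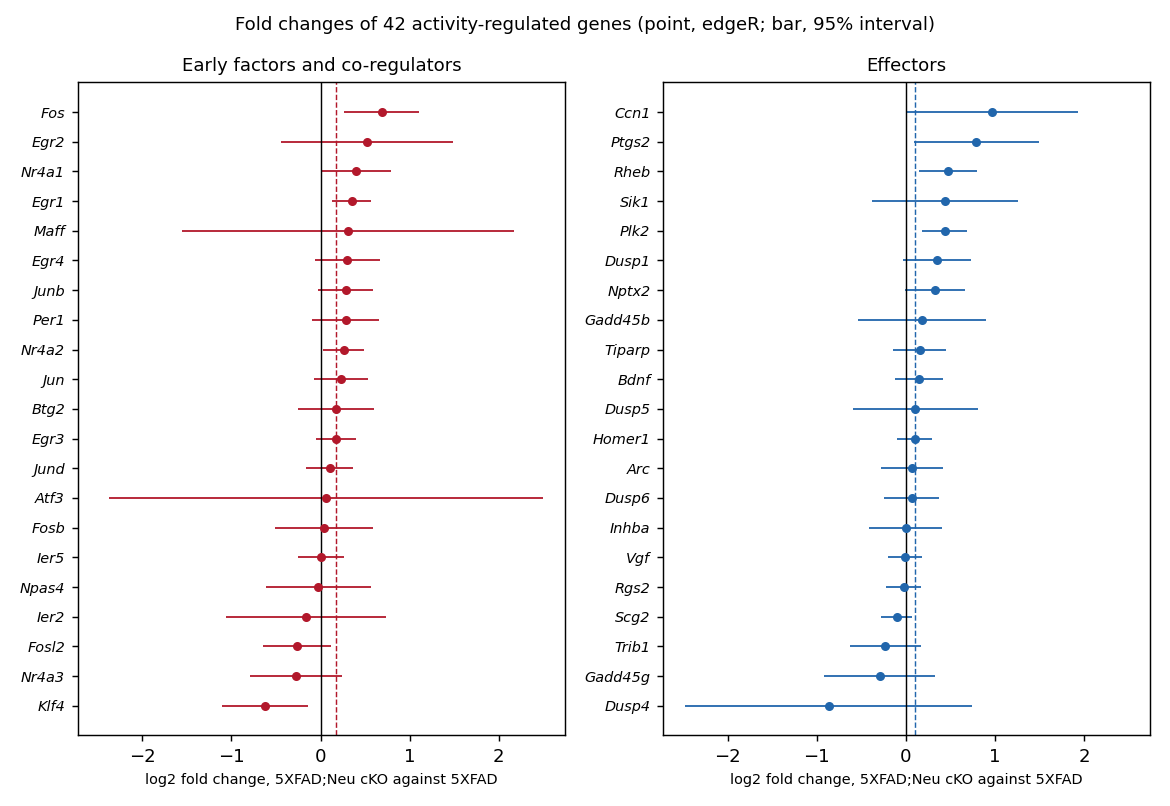
Log2 fold change of 5XFAD;Neu cKO against 5XFAD (x axis, log2 scale) for the 21 early factors and co-regulators (left) and the 21 effectors (right), n = 5 libraries per group. Points are edgeR estimates, bars their 95% intervals, the solid line marks 0 and the dashed lines the list medians of 0.18 and 0.11. Fos, Egr1, Nr4a1 and Nr4a2 on the left and Ccn1, Ptgs2, Rheb and Plk2 on the right have intervals above 0, Klf4 has one below 0, and none of the 42 passed after adjustment.

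Among the AP-1 factors, the largest difference was that of Fos, the partner of JUN proteins in the AP-1 dimer. Fos (chromosome 12, 85520658 to 85524047, GRCm39) was at 22.1, 6.57, 18.9, 22.2 and 12.1 CPM in 5XFAD replicates 1 to 5 and at 30.5, 31.5, 26.4, 21.0 and 23.8 CPM in 5XFAD;Neu cKO replicates 1 to 5. The groups overlapped only through 5XFAD;Neu cKO replicate 4, which lay below 5XFAD replicates 1 and 4, and 5XFAD replicate 2 was far below the rest. The group means were 26.6 ± 4.39 CPM for 5XFAD;Neu cKO and 16.4 ± 6.84 CPM for 5XFAD (SD, n = 5 each). The log2 fold change was 0.69 (SE 0.21) with an edgeR adjusted p of 0.254. Relabelling the libraries in every way, an exact permutation test (two-sided) gave p = 0.0238 for Fos, where the smallest possible p is 0.00794. Without 5XFAD replicate 2 the log2 fold change was 0.49 and the adjusted p 0.615 (edgeR).

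The other AP-1 genes were nearer to 0. Junb was at 41.1 ± 2.98 CPM for 5XFAD;Neu cKO against 33.5 ± 8.85 CPM for 5XFAD (SD, n = 5 each, as for the values that follow; log2 fold change 0.28), and without 5XFAD replicate 2 the difference was 0.16. A gene on the opposite strand, Prdx2, overlaps Junb and had 5606 counts in all, and since the strand setting of the counting is not given, reads of the pair may not be fully separated. In all, 8 of the 42 genes are overlapped by another annotated gene with a total over 10. Jun was at 47.1 ± 11.1 against 40.2 ± 8.74 CPM and Jund, the family member least dependent on stimulation, at 47.1 ± 4.82 against 44.0 ± 4.66 CPM. Fosb, whose truncated splice form accumulates with repeated activity, was at 10.7 ± 2.22 against 10.3 ± 3.74 CPM, a log2 difference of 0.04 with a 95% interval from -0.51 to 0.59 that was -0.16 without 5XFAD replicate 2. Fosl2 was the AP-1 gene on the other side, at 18.0 ± 3.60 against 21.6 ± 1.73 CPM (log2 fold change -0.27, adjusted p 0.827 in edgeR). Atf3 and Maff, a stress-induced factor and a small MAF protein, had mean levels of 0.628 to 1.17 CPM, and their intervals span more than 1 log2 unit on both sides of 0.

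All 4 EGR genes, zinc finger factors that respond to synaptic input, had positive differences. Egr1 (chromosome 18, 34992876 to 34998049) was at 122, 91.3, 126, 144 and 117 CPM in 5XFAD replicates 1 to 5 and at 177, 139.6, 165, 172 and 112 CPM in the 5XFAD;Neu cKO replicates. 3 of the 5 libraries labelled 5XFAD;Neu cKO were above every 5XFAD library, and replicate 5 lay below 4 of them. The means were 153 ± 27.1 and 120.1 ± 19.1 CPM (SD, n = 5 each), a log2 fold change of 0.35 (SE 0.11) with an edgeR adjusted p of 0.254 and an exact permutation p of 0.0714. Egr3, a relative of Egr1 that also acts in plasticity, was at 99.2, 87.3, 86.8, 90.6 and 64.9 CPM in 5XFAD and at 115, 83.9, 86.0, 94.4 and 105 CPM in 5XFAD;Neu cKO. The Egr3 groups overlapped over most of their range, with a log2 fold change of 0.17 (SE 0.11, edgeR adjusted p 0.787). Egr4 was at 30.1 ± 5.32 against 24.2 ± 8.70 CPM and Egr2 at 4.63 ± 1.45 against 3.14 ± 2.85 CPM, with log2 fold changes of 0.30 and 0.52 and adjusted p-values of 0.753 and 0.884 (edgeR). Single libraries moved both: Egr4 was at 0.18 when 5XFAD replicate 2 was left out and at 0.55 when replicate 3 was, and Egr2 at 0.28 when 5XFAD replicate 5 was left out and at 1.10 when replicate 4 was. Without 5XFAD replicate 2 all 4 differences were still positive, with a median of 0.22 in place of 0.33.

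The NR4A genes encode orphan nuclear receptors induced through CREB, and the 3 of them did not share a sign. Nr4a1 was at 40.5, 8.92, 50.4, 53.7 and 42.0 CPM in 5XFAD replicates 1 to 5 and at 52.3, 66.0, 53.7, 47.5 and 39.9 CPM in 5XFAD;Neu cKO. Apart from 5XFAD replicate 2 the groups covered much the same range, and the log2 fold change of 0.39 (SE 0.20, edgeR adjusted p 0.628) was 0.15 without that library. Nr4a2, also a factor of dopamine neurons and of deep cortical layers, was at 57.0, 62.2, 65.2, 59.5 and 61.9 CPM in 5XFAD and at 74.4, 66.2, 62.8, 76.6 and 86.2 CPM in 5XFAD;Neu cKO. For Nr4a2 only 5XFAD;Neu cKO replicate 3 fell within the 5XFAD range. The log2 fold change was 0.26 (SE 0.12, edgeR adjusted p 0.543, exact permutation p = 0.0159) and was 0.26 without 5XFAD replicate 2 as well. Nr4a3 was at 14.8 ± 3.57 against 17.8 ± 9.38 CPM, and its log2 fold change of -0.27 became -0.51 without 5XFAD replicate 2 (edgeR adjusted p 0.672).

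Npas4, a factor induced by calcium and largely confined to neurons, showed no detectable difference at this depth. It was at 6.78, 3.75, 11.0, 17.7 and 11.9 CPM in 5XFAD and at 9.35, 12, 7.09, 9.09 and 13.2 CPM in 5XFAD;Neu cKO. All 5 libraries labelled 5XFAD;Neu cKO lay inside the 5XFAD range. The log2 difference was -0.02 with a 95% interval from -0.61 to 0.56, and leaving out 1 library at a time moved it between -0.23 and 0.27.

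Klf4 had the only negative difference at an unadjusted p under 0.05. It is a zinc finger factor of vessel and barrier cells that is also induced by activity. Klf4 was at 21.7, 19.0, 14.4, 10.8 and 23.8 CPM in 5XFAD and at 16.6, 8.28, 12.1, 14.0 and 7.04 CPM in 5XFAD;Neu cKO. The groups overlapped, with the 3 highest libraries all 5XFAD and the 2 lowest both 5XFAD;Neu cKO. The log2 fold change was -0.63 (SE 0.24) with an edgeR adjusted p of 0.445. Of 8 endothelial and mural markers 7 were higher and 1 lower in 5XFAD;Neu cKO with none past the threshold, and their summed level was 290 to 325 CPM against 255 to 320.2 CPM.

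The remaining early genes gave no difference beyond the spread between libraries. Per1, a clock repressor that also answers to CREB, was at 31.6 ± 12.9 against 25.9 ± 3.66 CPM and ranged from 16.1 to 49.5 CPM within 5XFAD;Neu cKO alone. Btg2, an antiproliferative co-regulator, was at 19.7 ± 4.57 against 17.5 ± 5.56 CPM. Ier5 and Ier2, early response genes of less defined function, were at 62.2 ± 13.9 against 61.9 ± 6.29 CPM and at 3.68 ± 1.89 against 4.10 ± 1.55 CPM.

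**Figure D2:**
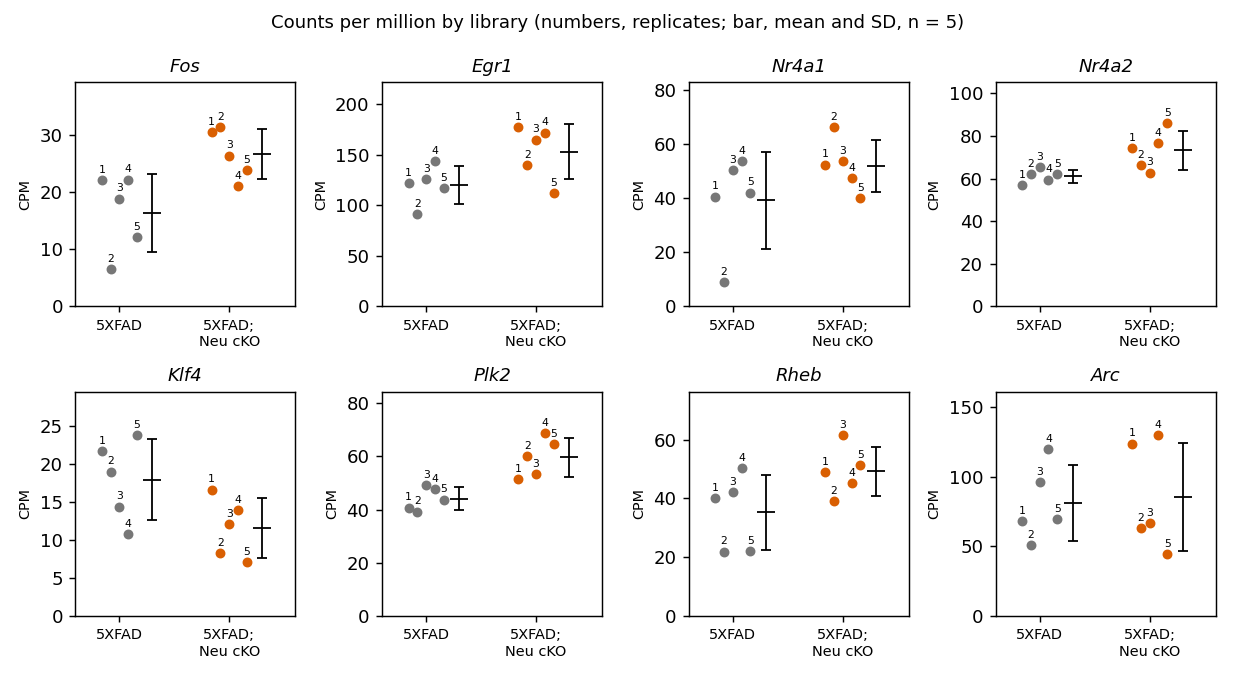
CPM (y axis, linear from 0) in each library for Fos, Egr1, Nr4a1, Nr4a2, Klf4, Plk2, Rheb and Arc, grey for 5XFAD and orange for 5XFAD;Neu cKO, with replicate numbers beside the points. Bars at the side give the mean and SD of 5 libraries. Plk2 is the gene whose groups do not overlap, 5XFAD replicate 2 is lowest for Fos, Egr1, Nr4a1, Plk2 and Rheb, and Arc spreads over the same range in both groups.

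Of the effectors at synapses and in dendrites, Plk2 was the 1 gene of all 42 whose groups did not overlap, where 1.3% of all genes tested did not (0.576% higher and 0.721% lower in 5XFAD;Neu cKO). Plk2 encodes a kinase that phosphorylates spine regulators and lowers synaptic strength after prolonged activity. Plk2 (chromosome 13, 110531015 to 110537379) was at 40.7, 39.2, 49.3, 47.7 and 43.8 CPM in 5XFAD replicates 1 to 5 and at 51.4, 60.1, 53.4, 68.8 and 64.8 CPM in 5XFAD;Neu cKO replicates 1 to 5. Here the lowest 5XFAD;Neu cKO library stood just above the highest 5XFAD library. The means were 59.7 ± 7.37 and 44.1 ± 4.36 CPM (SD, n = 5 each), a log2 fold change of 0.43 (SE 0.13, 95% interval 0.18 to 0.69). The edgeR adjusted p was 0.209 and the DESeq2 adjusted p 0.0521. The exact permutation test gave p = 0.00794, the smallest it can give, which groups of 5 that do not overlap always give. Without 5XFAD replicate 2 the difference was 0.39 (edgeR adjusted p 0.477).

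Rheb, the GTPase that activates mTORC1, had a log2 fold change of similar size with groups that overlapped. It was at 40.1, 21.8, 42.0, 50.3 and 22.0 CPM in 5XFAD and at 48.8, 39.0, 61.6, 45.3 and 51.3 CPM in 5XFAD;Neu cKO. 5XFAD replicates 2 and 5 lay well below the other 8 libraries, and the remaining values overlapped. The log2 fold change was 0.47 (SE 0.16, edgeR adjusted p 0.373, exact permutation p = 0.0952), and it was 0.34 without 5XFAD replicate 2.

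Arc and Homer1, whose products act on AMPA and metabotropic glutamate receptors, did not separate the groups. Arc was at 68.0, 50.7, 96.4, 119.9 and 69.8 CPM in 5XFAD and at 124, 62.9, 66.8, 130.1 and 44.4 CPM in 5XFAD;Neu cKO. Both the highest and the lowest of the 10 Arc values belonged to 5XFAD;Neu cKO. The log2 difference was 0.07 with a 95% interval from -0.28 to 0.42, and it was negative without 5XFAD replicate 2 (-0.06). Homer1 was at 214, 161, 215, 215 and 161 CPM in 5XFAD and at 245, 157, 193, 211 and 229 CPM in 5XFAD;Neu cKO. Its log2 difference was 0.10 with a 95% interval from -0.10 to 0.30. The count is per gene and does not separate the short activity-induced form Homer1a from the long constitutive forms. Gm47088 and Gm47075 overlap Homer1 on the same strand and had 691 and 107 counts in all. Reads of Homer1, of either form, may therefore not be fully counted.

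Of the secreted and vesicle proteins, 3 of 6 were higher and 3 lower. Bdnf, the neurotrophin that signals through TrkB, was at 48.8, 38.2, 43.1, 60.0 and 50.7 CPM in 5XFAD and at 69.5, 43.2, 52.6, 53.5 and 48.4 CPM in 5XFAD;Neu cKO. All Bdnf values but that of 5XFAD;Neu cKO replicate 1 lay within the 5XFAD range, with a log2 difference of 0.15 (SE 0.14, edgeR adjusted p 0.882). Nptx2, a pentraxin that clusters AMPA receptors on interneurons, was at 39.6 ± 9.10 against 31.7 ± 9.52 CPM (log2 fold change 0.33, edgeR adjusted p 0.647). The neuropeptide precursors were close to equal. Vgf was at 188, 149, 192, 207 and 151 CPM in 5XFAD and at 173, 152, 166, 202 and 189 CPM in 5XFAD;Neu cKO, and its log2 difference of -0.01 has a 95% interval from -0.20 to 0.18. Scg2, a granin of dense-core vesicles, was at 279, 225, 276, 285 and 272 CPM in 5XFAD and at 283, 211, 254, 266 and 231 CPM in 5XFAD;Neu cKO, a log2 difference of -0.10 with an interval from -0.28 to 0.07. The 5XFAD;Neu cKO range took in the whole 5XFAD range of Scg2 apart from its highest value. Inhba, a subunit of activin, was at 18.8 ± 3.88 against 18.8 ± 4.90 CPM.

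Ccn1, a matrix protein also known as Cyr61, had a larger fold change at low counts. It was at 2.52, 0.469, 3.67, 2.61 and 3.82 CPM in 5XFAD and at 6.54, 6.99, 1.31, 3.37 and 7.90 CPM in 5XFAD;Neu cKO. 3 libraries labelled 5XFAD;Neu cKO were above all 5XFAD libraries and the other 2 were among them. For Ccn1 the log2 fold change was 0.97 (SE 0.48, 95% interval 0.01 to 1.93), with an edgeR adjusted p of 0.626 and an exact permutation p of 0.198.

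The effectors that feed back on signalling held 7 positive and 4 negative differences. The largest positive one was that of Ptgs2, the inducible cyclooxygenase of cortical excitatory neurons. Ptgs2 was at 5.62, 2.82, 7.88, 3.91 and 7.41 CPM in 5XFAD and at 12.5, 6.62, 11.9, 14.5 and 2.73 CPM in 5XFAD;Neu cKO. 3 of the 5 libraries labelled 5XFAD;Neu cKO exceeded the 5XFAD range, while replicate 5 had the lowest of all 10 values. The log2 fold change was 0.79 (SE 0.35, edgeR adjusted p 0.540, exact permutation p = 0.230). An antisense gene on the opposite strand, Ptgs2os, had 53 counts in all.

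The dual-specificity phosphatases, which inactivate MAP kinases, were split. Dusp1 was at 27.1 ± 7.41 against 21.2 ± 5.23 CPM (log2 fold change 0.35, edgeR adjusted p 0.695), and it overlaps Ergic1 on the opposite strand. Dusp6 and Dusp5, which act on ERK, were at 33.6 ± 4.77 against 32.2 ± 5.79 CPM and at 6.53 ± 2.07 against 6.01 ± 2.31 CPM. Dusp4 was at 1.12 ± 0.758 against 2.04 ± 2.18 CPM, with 1 library at 0. Among the kinase and G protein regulators, Sik1 was at 4.99 ± 0.828 against 3.68 ± 1.28 CPM (0.43), Rgs2 at 109.6 ± 6.85 against 111 ± 8.90 CPM (-0.02), and the pseudokinase gene Trib1 at 27.8 ± 13.7 against 32.5 ± 2.69 CPM (-0.23), the figures in brackets being log2 fold changes. Trib1 ranged from 12.4 to 46.2 CPM within 5XFAD;Neu cKO and from 29.8 to 36.4 CPM within 5XFAD. Tiparp, a mono-ADP-ribosyltransferase, was at 42.9 ± 11.2 against 38.3 ± 4.14 CPM. Gadd45b and Gadd45g, which take part in stress signalling and DNA demethylation, were at 8.24 ± 4.67 against 7.14 ± 4.01 CPM and at 7.55 ± 2.29 against 9.31 ± 3.60 CPM.

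5XFAD replicate 2 stood apart for these genes as a class. It was the lowest of the 10 libraries for 20 of the 42, 8 early factors and 12 effectors. Among all genes tested that have a single lowest library, it was the lowest for 14.8%. Its log2 CPM was on average 0.59 below the gene mean for early factors and for effectors alike (-0.59 each), while the other 9 libraries had averages over the 42 genes from -0.07 to 0.31. It was lowest for Fos, Fosb, Nr4a1, Nr4a3 and Npas4, and not for Jund, Ier5 or Klf4. Its total of 4693831 counts and its mitochondrial share of 24.7% lay within the range of the other libraries, its 17860 genes with a count were the fewest, and the level of the 8 excitatory neuron markers was the highest in it (5024 CPM), as were those of the microglia (488 CPM) and oligodendrocyte (2894 CPM) markers. The level of the red cell markers was the lowest of the 10 in it (6.34 CPM), and that of the inhibitory neuron markers was the lowest of the 5XFAD libraries (586 CPM). The part of these in the low values was not tested. At the other end, 5XFAD;Neu cKO replicate 1 was highest for 11 of the 42, 5XFAD replicate 4 for 8 and 5XFAD;Neu cKO replicate 4 for 7.

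**Figure D3:**
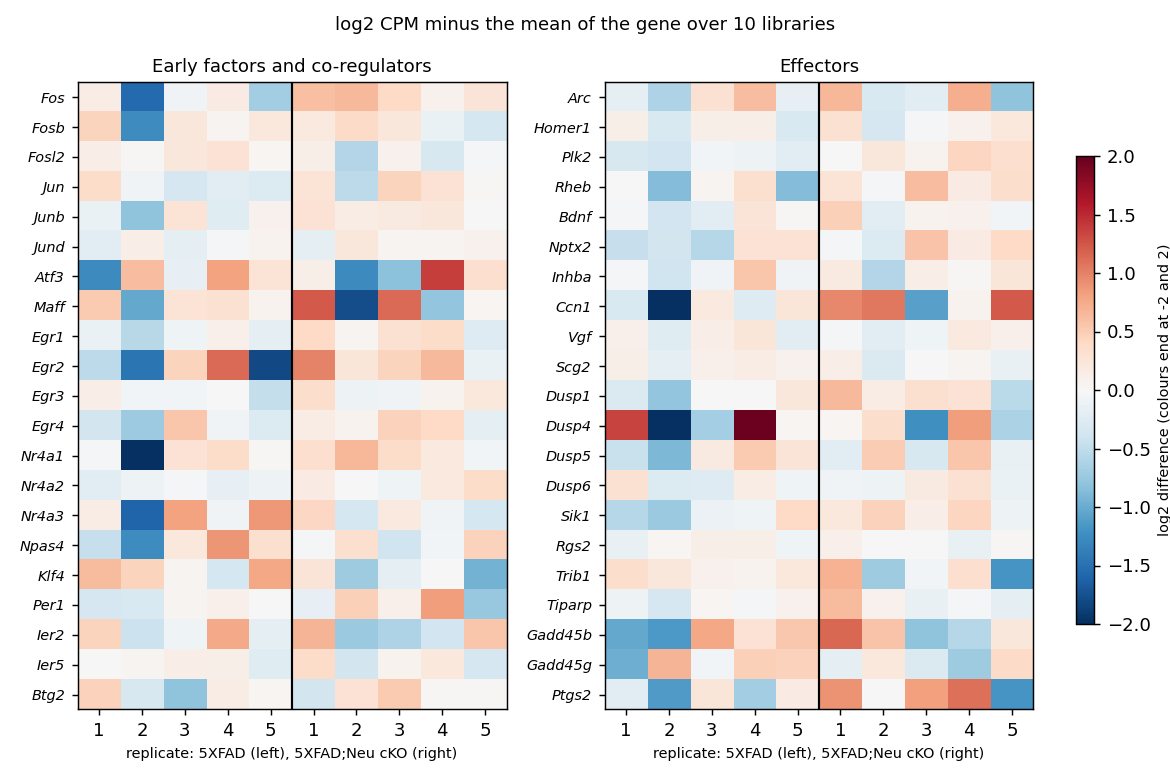
Log2 CPM of each gene minus its mean over the 10 libraries (colour, ending at -2 and 2), with genes as rows, early factors on the left, effectors on the right, and replicates 1 to 5 of 5XFAD and then of 5XFAD;Neu cKO as columns. The column of 5XFAD replicate 2 is blue for most genes and is lowest for 20 of the 42, and that of 5XFAD;Neu cKO replicate 1 is red for most and is highest for 11.

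Whether early factors and effectors varied together between mice of the same genotype was examined as the correlation of each of 10 genes with Fos, in log2 CPM centred on the group mean over 10 libraries. These values share libraries and their scaling. The permutations exchanged centred values between the groups, which differ in the spread of Fos. Their p-values are therefore approximate and may be too small. Nr4a1 gave the highest Pearson r, 0.88 (permutation p = 0.00305, adjusted over the 10 relations 0.0305), with a Spearman rho of 0.78 (permutation p = 0.00984, adjusted 0.0984). It rested on the ends of the Fos range: r was 0.53 without the 2 libraries farthest from the Fos median, 5XFAD replicates 2 and 4, and 0.52 without 5XFAD replicate 2 alone. The other r values were 0.69 for Egr2, 0.62 for Junb, 0.62 for Npas4, 0.60 for Egr1, 0.50 for Homer1, 0.47 for Bdnf, 0.46 for Dusp1, 0.41 for Arc and 0.23 for Btg2, and their adjusted permutation p-values ran from 0.135 to 0.525. Without the 2 farthest libraries r was 0.51 for Egr2, 0.27 for Homer1, 0.15 for Egr1 and 0.14 for Junb, and it was between -0.31 and 0.03 for the other 5. Within 1 group there are 5 libraries, too few for a correlation of its own.

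**Figure D4:**
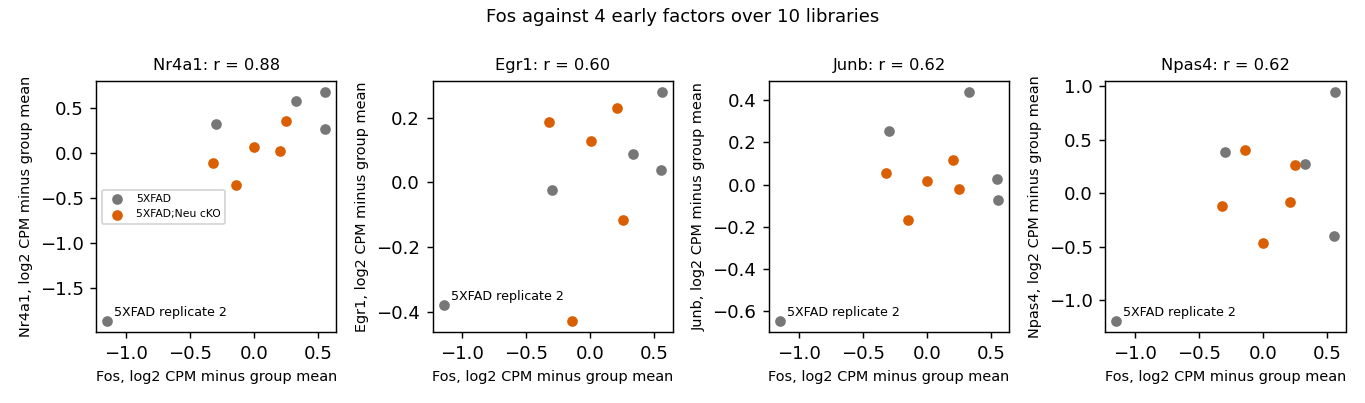
Fos (x axis) against Nr4a1, Egr1, Junb and Npas4 (y axes), each as log2 CPM minus the mean of its group, in 10 libraries, grey for 5XFAD and orange for 5XFAD;Neu cKO. 5XFAD replicate 2 lies at the left end of every panel and lowest for Nr4a1, Junb and Npas4, and r is 0.88, 0.60, 0.62 and 0.62 with it.

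Genes grouped by promoter element had similar medians. The 8 genes with a CRE had a median log2 fold change of 0.14 with 5 positive, the 7 with a CArG box 0.17 with 6 positive, and the 27 with neither 0.15 with 19 positive. The 3 groups have ranges that include each other's medians, and no test was made.

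Further genes of the pathway came from written lists. Of 23 other activity-induced genes, 20 had a positive difference with a median of 0.16, none passed the adjusted threshold in edgeR or DESeq2, and none had an unadjusted p under 0.05 by either tool. Without 5XFAD replicate 2 the number was 16 and the median 0.08. The 2 with the smallest p were Klf10, a zinc finger repressor, at 19.2 ± 5.86 against 13.4 ± 7.28 CPM (log2 fold change 0.49, edgeR adjusted p 0.651), and Nrn1, the plasticity protein neuritin, at 184 ± 27.9 against 162 ± 29.4 CPM (0.18, adjusted p 0.714). Of 31 genes that carry signals to these promoters, from CREB and SRF to MEF2 and the ERK pathway, 21 were positive with a median of 0.06, none passed in edgeR, and 2 had an unadjusted p under 0.05 there. DESeq2 called 1 of the 31, and 3 had an unadjusted p under 0.05 by it. Crtc2, a CREB coactivator and the one with the larger p of the 2 from edgeR, was at 6.40, 0, 7.61, 5.59 and 0.898 CPM in 5XFAD and at 9.72, 9.93, 13.3, 9.76 and 8.62 CPM in 5XFAD;Neu cKO. The Crtc2 groups did not overlap, which by itself gives the smallest exact permutation p (0.00794). The log2 fold change of Crtc2, 1.27 (SE 0.41, edgeR adjusted p 0.281), was 0.97 without 5XFAD replicate 2, which had 0 counts of it.

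Bulk cortex mixes cell types, and fewer cells of a type and less RNA per cell cannot be told apart. Of 10 microglia markers all 10 had negative differences and 4 passed the threshold (Csf1r, Cx3cr1, C1qb and C1qc), with a summed level of 253 to 299 CPM against 332 to 488 CPM. Red cell markers were higher, 5 of 5, with Hba-a1 and Hbb-bs past the threshold and sums of 46.9 to 211 CPM against 6.34 to 51.4 CPM. These calls are from edgeR. DESeq2 called 3 of the microglia markers and 0 of the red cell markers, with no adjusted p for 4 of each. Of 8 astrocyte markers 6 were negative and Gfap passed, at a log2 fold change of -0.88. The 8 oligodendrocyte markers were all negative with none past the threshold (1766 to 2798 CPM against 1956 to 2894 CPM), the smallest p being those of Mobp (-0.43) and Mbp (-0.28). Without 5XFAD replicate 2, the library with the highest sum, 1 of the 8 was positive and their median was -0.14 in place of -0.25. None passed among the markers of excitatory neurons (Neurod2 0.32, Nrgn -0.09), inhibitory neurons (Vip -0.42, Gad1 0.22), striatum (Six3 -0.19, Ppp1r1b 0.12), hippocampus (Prox1 -0.28, Spink8 -1.65) or endothelial and mural cells (Vtn 0.20, Rgs5 0.09), where the figures are log2 fold changes of the 2 genes with the smallest p. The part of the microglial and red cell differences in the values of the 42 genes was not tested.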

How the data were processed

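QuantSeq 3′ libraries of cortex were read as single reads. The authors trimmed them with bbduk, aligned them to GRCm39 with STAR (2.7.3a in the submitters' processing notes) and assigned reads to genes with htseq-count (HTSeq 0.9.1 in those notes). The strand setting is not given in the sources used here. The deposited values are whole-number counts per gene and library, with no normalization. Rows with reads on no gene (31.3% to 39.9%) were left out. GENCODE (also GRCm39) gave symbols for 52610 identifiers.

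Counts were fitted in R 4.3.3 with edgeR 4.0.16 (TMM, glmQLFit, glmQLFTest, group as the only term) over all genes with a total over 10, with Benjamini-Hochberg adjustment and a threshold of 0.05. The scripts were tested on simulated data, drawn for each gene independently, so no shift beyond library size was shared by the genes of a library. The 200 changed genes were taken from those with a total count over 200, so the recovery does not cover genes with lower counts. A log2 change of 0.5 was recovered for 23% of them (7.66% of calls false), and one of 1 for 71.5% (8.64% false). DESeq2 1.42.0 was an alternative. Single genes had an exact two-sided permutation test. Relations used 100000 permutations (scipy 1.17.1) and log2 CPM with a prior count of 2. Intervals are 95%.

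The members and lists were chosen with earlier results of these data known. Every library is shown for genes with an unadjusted p under 0.05 or groups that do not overlap, the 3 most abundant early genes and the 3 most abundant effectors, and Fos, Egr1, Arc, Npas4 and Bdnf. Of other lists, genes past the threshold are named, or otherwise the 2 with the smallest p. Some genes and sequences that these rules cover are not reported here. Other genes named as examples were chosen after their values were seen.

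The labels do not say whether the same replicate number in both groups pairs libraries. Correlations of their deviations over all genes tested were -0.01 to 0.02. Many of these genes have few counts, so values near 0 cannot show that there was no pairing.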

Additional observations from a re-analysis of the deposited data

Results flagged for a closer look

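Of 84 groups of 5 values (42 genes in each genotype, in CPM), 2 held a sample far from the other 4 (gap over range above Dixon's 95% critical value), where chance flags about 1 in 20. Scg2 was at 224.8 CPM in 5XFAD replicate 2, with the nearest 5XFAD library at 272 CPM. Tiparp was at 62.1 CPM in 5XFAD;Neu cKO replicate 1, with the nearest library of that group at 42.5 CPM.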

How the results depend on the processing

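At an adjusted p under 0.05 edgeR called 42 of all genes. DESeq2 called 73, no filter on low counts 103, and leaving out 1 library 26 to 72 (26 without 5XFAD replicate 2, 72 without 5XFAD;Neu cKO replicate 1, 27 without its replicate 4 and 27 without its replicate 5). None of the 42 activity-regulated genes was called under any alternative but the replicate block (0 to 0 when 1 library was left out), and those with an unadjusted p under 0.05 numbered 6 to 11, a count added after the data were seen. The replicate numbers are not known to pair the libraries, so the block is given here only. With it 112 genes were called, 1 of them activity-regulated, Fos at a log2 fold change of 0.76 (edgeR adjusted p 0.029). Npas4 turned to 0.071 with the block.

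When 1 library was left out, the sign turned for 14 of the 42 genes, none with a log2 fold change over 0.31 in size. Maff ran from -0.11 to 0.62, Gadd45b from -0.15 to 0.44, Npas4 from -0.23 to 0.27, Arc from -0.13 to 0.25 and Vgf from -0.070 to 0.049. The median ran from 0.14 to 0.25 for early factors and from 0.0059 to 0.23 for effectors. The correlation with Fos ran from 0.52 to 0.95 for Nr4a1 (adjusted p above 0.05 without 5XFAD replicate 2 or 4), 0.62 to 0.77 for Egr2, -0.030 to 0.81 for Npas4, -0.30 to 0.75 for Junb, -0.063 to 0.60 for Dusp1 and 0.31 to 0.81 for Homer1. Calls were gained for Egr2 and Npas4 without 5XFAD replicate 1 (0.77 and 0.81, adjusted permutation p = 0.0457 each) and for Homer1 without 5XFAD;Neu cKO replicate 2 (0.81, adjusted permutation p = 0.0291). The negative ends were those without 5XFAD replicate 2. Values not centred on the group mean gave 0.75 for Egr1 and 0.77 for Egr2, both past the threshold. The cause of these changes was not tested. With 5 libraries per group, a 95% interval that includes 0 does not show equal levels. The activity-regulated genes whose interval excludes 0 did not pass the adjusted threshold in the main edgeR fit either.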
